A study of Bubalus bubalis with 36 samples.

Results

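The 2 microRNAs described here are miR-143 and miR-145, found as the rows of the count table carrying the bovine names bta-miR-143 and bta-miR-145. The table held 1682 features, 695 of them with a bovine miRNA name, and each of these 2 names had 1 row with no arm suffix. Both rows passed the filter on low counts that left 667 features for testing, 389 of them named. The rows were chosen by name and not by their values.

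The libraries were small RNA sequencing libraries from adipose tissue of water buffalo (Bubalus bubalis). The same 6 animals each gave 6 depots, which made 36 libraries. The subcutaneous depots were back (BSAT), sternal (SSAT) and inguinal (IAT) fat, while fat of the omentum (omental, OAT), around the heart (pericardial, PCAT) and around the kidney (perirenal, PRAT) made up the visceral class, with 6 libraries per depot and 18 per class. The labels give weaning at 3 months of age, a fattening period that began at 15 months and slaughter at 20 months for every animal, and no treatment, strain or genotype was named. A library is called here by its depot and its animal, so that BSAT3 is the back fat of buffalo 3. Whole tissue was sequenced, so more cells of a type and more of a miRNA per cell cannot be told apart in any value below.

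MicroRNAs are short RNAs that pair with messenger RNAs through their first bases and lower the protein made from them. In mammals, miR-143 and miR-145 are processed from 1 primary transcript but have different seeds, and so different targets. Both are best known from smooth muscle, where serum response factor and myocardin switch the transcript on and where the pair favours the contractile state. In fat, miR-143 has been described as rising when preadipocytes become adipocytes and as favouring that step, and in the walls of the tissue's vessels both are made by smooth muscle cells.

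Depth was even, at 9484589 to 13920998 counts per library, and normalisation factors ran from 0.745 to 1.26. No miRNA is made by adipocytes alone, and no other tissue was at hand for comparison, so the counts cannot check the labelled tissue. The 17 tested miRNAs reported to promote adipocyte formation had a summed level of 34222 to 182771 CPM (counts per 1000000 of a library total scaled with TMM factors) over the 36 libraries. Epithelial and mesothelial miRNAs summed to 3.72 to 77.6 CPM in subcutaneous and 5.17 to 2811 CPM in visceral libraries, and all 5 tested were lower in subcutaneous fat, where 16.5% of all features were called in that comparison in either direction. The library names ended in A or B, a letter the labels do not explain. The letter A stood on 8 libraries, 7 of them visceral.

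miR-143 was among the most abundant miRNAs of every library and miR-145 was of middling abundance. miR-143 averaged 28569 CPM (SD 12830, n = 36 libraries) and ranked from 2 to 24 by count among all features of a library. It made up 0.934% to 8.58% of all counts. miR-145 averaged 390 CPM (SD 415) with a median of 278 CPM, ranked from 53 to 166 and made up 0.00592% to 0.277% of counts. The row for miR-143 exceeded that for miR-145 in 36 of 36 libraries. Counting error was small for both, at most 0.289% of the count for miR-143 and 3.77% for miR-145, where the lowest count was 704 reads. Counts of 2 different small RNAs also carry differences in how well each is ligated and amplified, so the gap is one of reads and was not shown to be one of molecules.

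In back fat, miR-143 measured 30303, 23047, 25915, 33263, 38710 and 22635 CPM in buffaloes 1 to 6. In sternal fat it measured 19520, 34527, 24510, 27234, 25807 and 23054 CPM. In inguinal fat it measured 22738, 35760, 31243, 39496, 30743 and 22840 CPM. These 3 subcutaneous depots overlapped throughout, and no subcutaneous library fell below 19520 or rose above 39496 CPM. In omental fat miR-143 measured 46109, 7508, 18354, 31164, 21906 and 34157 CPM in the same order of animals. In pericardial fat it measured 27695, 30112, 14854, 20533, 18625 and 20478 CPM. In perirenal fat it measured 29288, 22592, 19012, 30918, 35263 and 88582 CPM. Both the lowest of all 36 values (OAT2) and the highest (PRAT6) were visceral, and the visceral libraries had a mean of 28730 ± 17383 CPM (SD, n = 18) and the subcutaneous ones 28408 ± 6057 CPM. Without PRAT6 the visceral value was 25210 ± 9166 CPM (n = 17).

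miR-145 measured 341, 489, 2478, 283, 373 and 245 CPM in the back fat of buffaloes 1 to 6. In sternal fat it measured 656, 712, 215, 217, 166 and 77.4 CPM. In inguinal fat it measured 114, 802, 280, 289, 165 and 368 CPM. BSAT3 held more than every other library of the series, and the other 5 back libraries lay within the range of the other 2 subcutaneous depots. In omental fat miR-145 measured 142, 202, 276, 319, 58.4 and 504 CPM. In pericardial fat it measured 220, 730, 573, 183, 242 and 461 CPM. In perirenal fat it measured 99.6, 369, 183, 162, 203 and 847 CPM. Every depot held libraries both above and below the overall median of 278 CPM, and the lowest of all, OAT5, lay 42.4-fold under BSAT3.

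**Figure D1:**
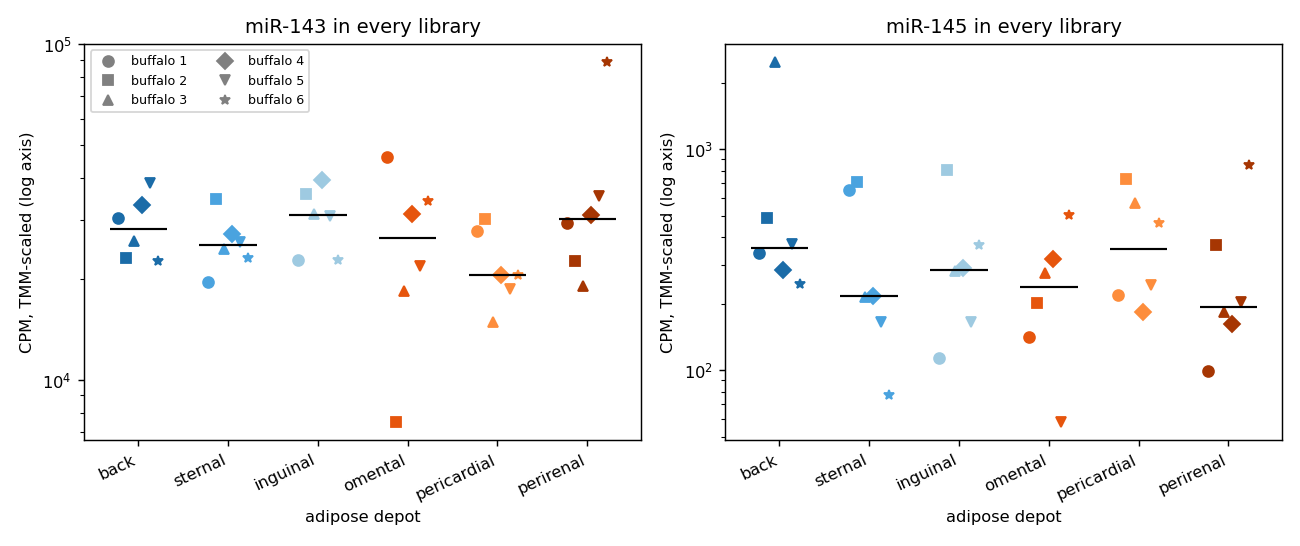
Levels of miR-143 and miR-145 in CPM (log axis) in the 36 libraries by depot, with 1 point per animal and a black bar at the depot median. The depots overlap for both miRNAs, and PRAT6 (miR-143, 88582 CPM) and BSAT3 (miR-145, 2478 CPM) stand above the rest.

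Mean miR-143 levels by depot fell in the order perirenal (37609 ± 25648 CPM, SD, n = 6), inguinal (30470 ± 6755), back (28979 ± 6319), omental (26533 ± 13513), sternal (25775 ± 5037) and pericardial (22049 ± 5747). Without PRAT6 the perirenal mean was 27414 ± 6543 CPM (n = 5), below inguinal and back fat. No neighbours in this order differed beyond their spread (adjusted p of 0.707 to 0.982, edgeR quasi-likelihood test). For miR-145 the order was back (701 ± 874 CPM), pericardial (401 ± 222), sternal (341 ± 271), inguinal (336 ± 246), perirenal (310 ± 278) and omental (250 ± 155). Without BSAT3 the back mean was 346 ± 93.8 CPM (n = 5), below pericardial fat, so 1 library sets the top of this order. Its neighbours did not pass the test either (adjusted p of 0.523 to 0.998).

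The series compared subcutaneous with visceral fat, and neither miRNA passed the test in that comparison. miR-143 differed by 0.02 ± 0.18 on the log2 scale (subcutaneous minus visceral, SE; adjusted p = 0.972, edgeR quasi-likelihood test with Benjamini-Hochberg adjustment over 667 features). The 95% interval of this difference was -0.35 to 0.39, which is a fold of 0.782 to 1.31. By animal, miR-143 was higher in subcutaneous fat in 4 buffaloes and lower in 2, from 0.83 higher in buffalo 2 to 0.79 lower in buffalo 6 (log2 differences of 0.83 and -0.79). miR-145 differed by 0.46 ± 0.36 (adjusted p = 0.407), with an interval of -0.27 to 1.18, or a fold of 0.831 to 2.26. It was higher in subcutaneous fat in 5 of 6 animals, by 0.30 to 1.01, and in buffalo 6 the log2 difference was -1.60. The main fit held no animal term, although the same animals gave every depot. With the animal as a term, the edgeR differences were 0.07 ± 0.19 for miR-143 (adjusted p = 0.819) and 0.49 ± 0.33 for miR-145 (adjusted p = 0.329). The same test called 16.5% of the 667 features, so a difference between the classes was detectable for other miRNAs at this size of study. Those calls do not show what size of miR-145 difference could pass. Its biological coefficient of variation fitted by edgeR was 0.723, against a median of 0.516 for named miRNAs averaging at least 10 CPM. Without BSAT3 the miR-145 difference was 0.18, and without PRAT6 it was 0.69 (adjusted p = 0.175). With 1 animal or library left out in turn, it ran from 0.18 to 0.90 (adjusted p of 0.0972 to 0.786, edgeR). Without PRAT6 the miR-143 difference was 0.18. Among the 28 libraries of letter B the differences were 0.01 for miR-143 (adjusted p = 0.998) and 0.66 for miR-145 (adjusted p = 0.389), and letter A held too few subcutaneous libraries for a value of its own.

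Over the 6 depots together, the fitted means of miR-143 spanned 0.77 on the log2 scale (adjusted p = 0.463) and those of miR-145 spanned 1.49 (adjusted p = 0.417), and neither passed. Without BSAT3 the span of miR-145 was 0.56 (adjusted p = 0.959). This test called 13.9% of the features.

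Set against the mean of the other 5 depots, perirenal fat had the largest miR-143 difference, 0.50 ± 0.24 on the log2 scale (SE; unadjusted p = 0.0414, adjusted p = 0.314, edgeR). Pericardial fat had the lowest, -0.42 ± 0.25 (adjusted p = 0.372), and in 4 of 6 animals the pericardial library held the least miR-143. The back, sternal, inguinal and omental differences were 0.05, -0.15, 0.14 and -0.10. Without PRAT6 the perirenal difference was 0.09 (adjusted p = 0.867). For miR-145, back fat stood furthest from the other depots, at 1.11 ± 0.44 (unadjusted p = 0.0160, adjusted p = 0.260). Without BSAT3 that difference was 0.08 (adjusted p = 0.956). Omental fat was lowest, at -0.67 ± 0.50 (adjusted p = 0.548), and the sternal, inguinal, pericardial and perirenal differences were -0.14, -0.16, 0.15 and -0.30. Among the letter B libraries the perirenal difference of miR-143 was 0.88 (adjusted p = 0.288) and the back difference of miR-145 was 1.34 (adjusted p = 0.197). The perirenal libraries of letter B were PRAT3, PRAT5 and PRAT6 alone, so PRAT6 weighs more in the 0.88 than in the 0.50. BSAT3 was among the back libraries of letter B. None of the 12 differences over all 36 libraries passed the adjusted threshold of 0.05. The share of all features called was 2.25% for back, 9.3% for sternal, 0.3% for inguinal, 1.5% for omental, 9.15% for pericardial and 3.15% for perirenal fat.

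**Figure D2:**
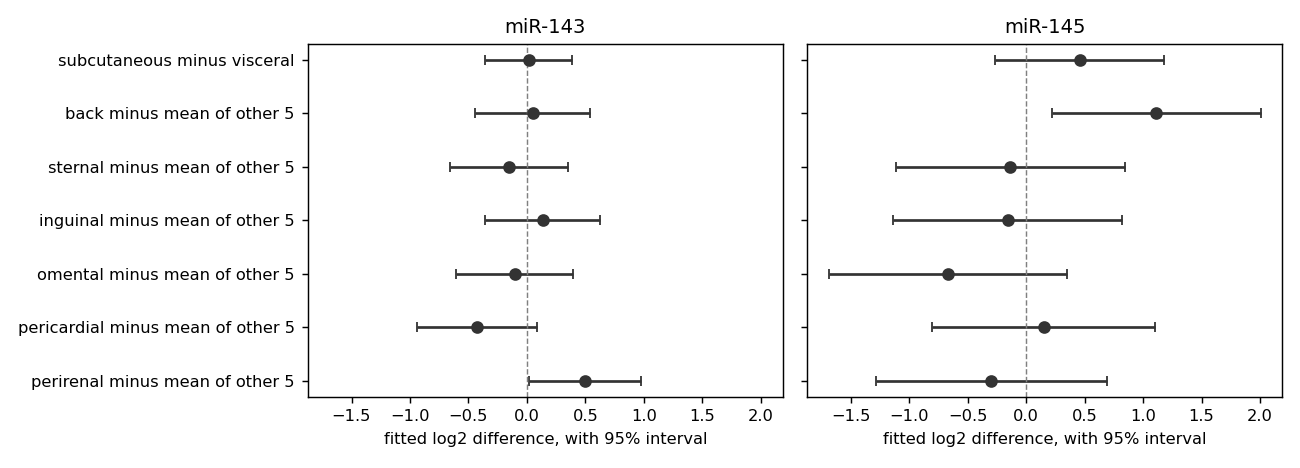
Fitted log2 differences of miR-143 and miR-145 with 95% intervals, for subcutaneous minus visceral fat and for each depot minus the mean of the other 5. The intervals of the perirenal difference for miR-143 (0.50) and the back difference for miR-145 (1.11) lie above 0, and no difference passed after adjustment over all tested features.

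Among the 15 pairs of depots, 0 were called for either miRNA by edgeR, with 1 pair under an unadjusted p of 0.05 for each. For miR-143 this was pericardial minus perirenal fat, at -0.77 ± 0.32 (SE; unadjusted p = 0.0209, adjusted p = 0.196, edgeR). For miR-145 it was back minus omental fat, at 1.49 ± 0.63 (SE; unadjusted p = 0.0237, adjusted p = 0.210, edgeR). Without PRAT6 the miR-143 pair stood at -0.44, and without BSAT3 the miR-145 pair stood at 0.43. Leaving out buffalo 2 took the pericardial minus perirenal difference of miR-143 to -1.05 (adjusted p = 0.0408), the only call among the 2442 fits of either miRNA under 55 alternatives. Over all features, the tests with back fat called 0.3% against sternal, 0% against inguinal (where 56 features had an unadjusted p under 0.05), 1.65% against omental, 6.45% against pericardial and 1.05% against perirenal. For sternal fat they called 0.6% against inguinal, 4.8% against omental, 12.1% against pericardial and 7.2% against perirenal. For inguinal fat they called 0.75% against omental, 3.45% against pericardial and 0.6% against perirenal, and among the visceral depots 0.9% for omental against pericardial, 0.45% for omental against perirenal and 2.1% for pericardial against perirenal.

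Since both miRNAs are read in the same library, their count ratio does not depend on scaling between libraries. miR-143 had a median of 104 reads per miR-145 read, from 10.5 in BSAT3 to 374 in OAT5. Written as a share, miR-145 was 0.266% of the pair's reads in OAT5 (Wilson 95% interval 0.247% to 0.286%) and 8.73% in BSAT3 (8.64% to 8.81%), intervals that cover counting error only. On the log2 scale the ratio averaged 5.92 in back, 6.63 in sternal, 6.75 in inguinal, 6.81 in omental, 5.93 in pericardial and 7.09 in perirenal fat. The class difference was -0.18 (permutation of depot labels within animals, 2-sided, p = 0.585), with 2 animals higher in subcutaneous fat and 4 lower. The span of 1.17 over depots did not pass either (permutation p = 0.145, adjusted over 3 ratio tests 0.217). It was under the threshold without buffalo 1 (permutation p = 0.0435) and without SSAT1 alone (permutation p = 0.0371).

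Between animals the ratio did differ. Animal means spanned 1.77 on the log2 scale (animal labels permuted within depots, permutation p = 0.00833, adjusted over 3 ratio tests 0.0250), a comparison added after the values were seen. Buffalo 2 had the lowest mean (5.53 ± 0.25, SD over 6 depots), and its ratio stayed between 37.1 and 61.3 in all 6 of its depots. Buffalo 4 was also even, at 97.8 to 191, and buffalo 5 had the highest mean (7.30 ± 0.78). Buffalo 1 ran from 29.7 in sternal to 325 in omental fat, and buffalo 3 from 10.5 in back to 114 in sternal fat, so these animals varied widely within themselves. Without buffalo 2 the span over animals was 1.55 (permutation p = 0.0731), and with the 28 libraries of letter B it was 2.04 (permutation p = 0.0534). With each depot left out in turn the permutation p stayed between 0.00014 and 0.0482.

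**Figure D3:**
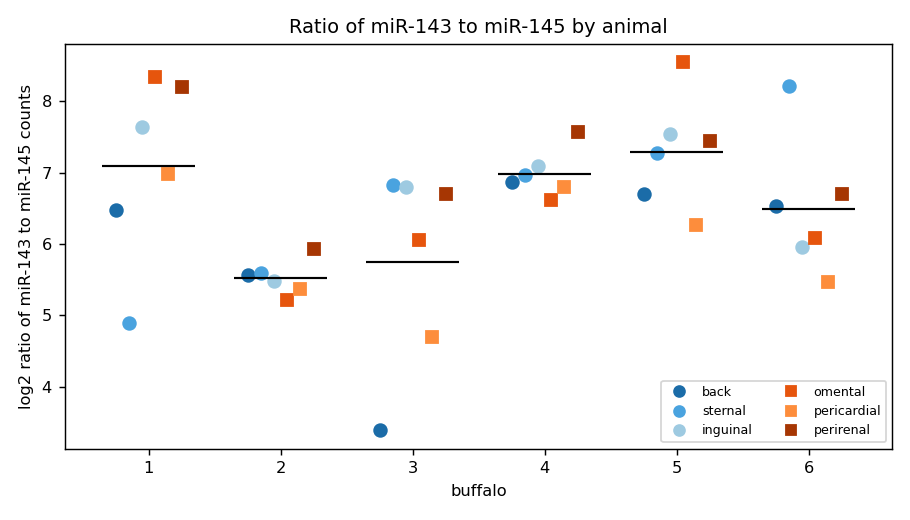
Ratio of miR-143 to miR-145 counts (log2 scale) in each animal, with 1 point per depot and a black bar at the animal mean. Buffalo 2 lies low in all its depots (37.1 to 61.3 reads of miR-143 per read of miR-145), and BSAT3 is the lowest point of all (10.5).

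The levels behind this ratio were less clear by animal. In the fit that keeps the animal as a term, miR-145 spanned 1.57 on the log2 scale between animals (edgeR quasi-likelihood F test, unadjusted p = 0.0348, adjusted p = 0.122), and miR-143 spanned 0.59 (adjusted p = 0.702). That test called 11.7% of features. miR-145 was highest in buffalo 2 in 3 of 6 depots. Depot, animal and the remainder took 14.8%, 11.1% and 74.1% of the variance of miR-143 in log2 CPM, and 13.7%, 25.7% and 60.6% of that of miR-145. The median named miRNA had 21.8%, 18.2% and 53.8%. Such shares are positive even where depots or animals do not differ, and no test was run on them.

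Despite the shared primary transcript known from other mammals, no correlation of the 2 miRNAs passed after adjustment. Pearson's r of log2 CPM was 0.19 (n = 36, permuted within animals, permutation p = 0.304) and Spearman's rho was 0.18 (permutation p = 0.279). These shuffles keep each animal's mean, and the animal means of the 2 miRNAs had an r of -0.68, so the shuffled r does not centre on 0. The pooled permutation p is therefore a poor measure of the pooled r, and does not show that the levels are unrelated. With each animal's own mean taken off, r was 0.38 (permutation p = 0.0392) and rho was 0.34 (permutation p = 0.0588), so within animals the levels ran together more than the pooled value shows. The adjusted permutation p was 0.364 for the pooled values and 0.176 for the within-animal ones, over 6 correlations tested, the pooled ones included. Without OAT2 and PRAT6, the libraries farthest from the miR-143 median, the pooled r was 0.03 and the within-animal r 0.15, so both rest on those libraries. Among the 28 libraries of letter B the pooled r was 0.21. Over the means of the 6 animals r was -0.68 (exact permutation p = 0.183) and rho was -0.37 (exact permutation p = 0.497). The extremes did not coincide: BSAT3, with the most miR-145, held 25915 CPM of miR-143, and OAT2, with the least miR-143, held 202 CPM of miR-145. PRAT6 (88582 and 847 CPM), IAT2 (35760 and 802 CPM) and SSAT2 (34527 and 712 CPM) were high in both.

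**Figure D4:**
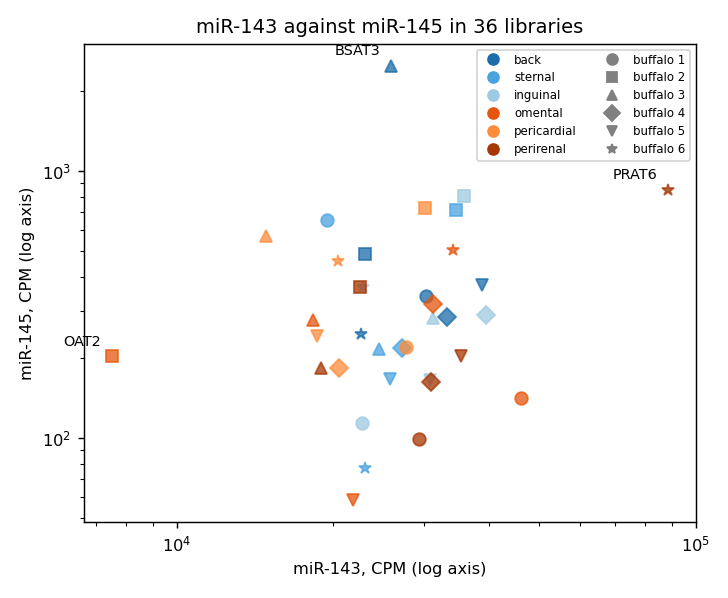
Level of miR-145 against miR-143 in CPM (both axes log) in the 36 libraries. The points scatter widely (r = 0.19, and 0.03 without OAT2 and PRAT6), and PRAT6, BSAT3 and OAT2 lie away from the rest.

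The spread of the 2 rows also differed. Across libraries miR-143 had an SD of 0.56 in log2 CPM, and 48 of 209 named miRNAs averaging at least 10 CPM had a smaller one. Among the 22 of these at 10000 CPM or more, 11 had a smaller SD, so miR-143 lay in the middle of miRNAs of like abundance. miR-145 had an SD of 1.07, with 148 of the 209 below it and a median of 0.82. The biological coefficient of variation fitted by edgeR was 0.410 for miR-143 and 0.723 for miR-145, against a median of 0.516.

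Among the other 208 of these miRNAs, those most like miR-143 over the 36 libraries were miR-27b (r = 0.63), reported to hold back adipocyte formation, miR-1 (0.57), a muscle miRNA, miR-99a-5p (0.47), miR-378 (0.46), which lies in the gene of the PGC-1beta coactivator, and miR-181c (0.45). miR-1 owed part of its place to single libraries, since r was 0.42 without BSAT3 and PRAT6. miR-145 came 42nd, and 2 of the 208 had an r of at least 0.5 in size. The miRNAs most like miR-145 were miR-365-3p (0.71), miR-140 (0.67), known from cartilage, miR-24 (0.64), miR-1249 (0.63) and miR-30b-5p (0.61), and 31 of the 208 had an r of at least 0.5 in size. The miR-24 named here is the row with no arm suffix, at a mean of 27.3 CPM, and the separate row for miR-24-3p had an r of 0.15. miR-143 was 83rd for miR-145. The lowest values for miR-145, chosen after seeing them, were those of miR-99b (-0.78), miR-1468 (-0.69) and miR-181a (-0.64). These correlations are a description over libraries that share animals and a scaling, with no test. The first 5 names for miR-143 shared 1 with the first 5 computed without BSAT3 and PRAT6, and those for miR-145 shared 3.

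**Figure D5:**
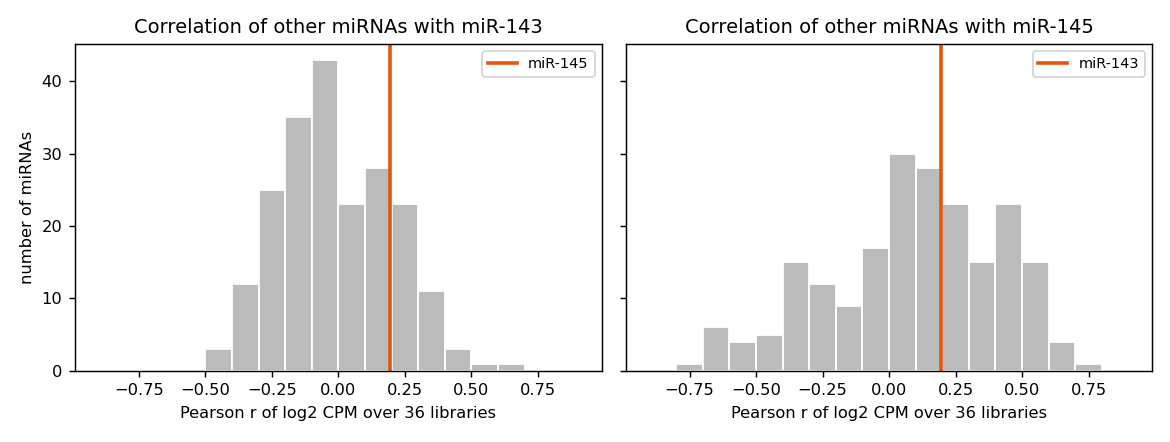
Histograms of Pearson's r of log2 CPM over 36 libraries between miR-143 or miR-145 and each of the 208 other named miRNAs. A vertical line marks the other member of the pair. Values for miR-145 reach from -0.78 (miR-99b) to 0.71 (miR-365-3p), and those for miR-143 reach 0.63 (miR-27b).

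Other miRNAs of smooth muscle and of the further cell types of fat give the setting for the pair, and their counts are to be read against the 16.5% of all features called between classes and the 13.9% called over depots. Of 15 tested miRNAs linked to the smooth muscle phenotype, 1 was higher and 0 were lower in subcutaneous fat, with a median difference of -0.02 against -0.09 over all features, and 2 were called over the 6 depots. The higher one was miR-10a, at 0.82 ± 0.21 (SE, adjusted p = 0.00791, edgeR). miR-204 was called over the depots (adjusted p = 0.0274) with a class difference of 0.45 ± 0.30, and miR-133b was not (-0.14 ± 0.69). Of the 15 precursors on this list, 9 also stand on another list, so it does not mark smooth muscle alone. Its summed level ran against that of miR-145 over the 36 libraries (r = -0.52, and -0.52 without miR-26a, its member with separate clusters of libraries) and not with that of miR-143 (r = 0.01, and 0.17 without miR-26a), which is a description with no test. Abundant members weigh most in a sum, and singly the members averaging at least 10 CPM went both ways. With miR-145, r was -0.54 for miR-139, -0.42 for miR-204, -0.40 for miR-26a and -0.35 for miR-10a. It was 0.64 for miR-24 (no arm suffix), 0.57 for miR-221, 0.36 for miR-28 and 0.20 for miR-125b. It was 0.18 for miR-31, 0.15 for miR-24-3p, 0.12 for miR-1 and 0.11 for miR-21-5p.

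Of 9 tested fibroblast and stroma miRNAs, 3 were higher in subcutaneous fat and 1 was lower, with miR-199b at 1.47 ± 0.18 and miR-379 at -0.76 ± 0.23. Of 8 tested endothelial miRNAs 3 were higher and 0 lower. The higher ones were miR-27a-5p at 1.76 ± 0.33, miR-23a at 1.73 ± 0.21 and miR-27a-3p at 0.81 ± 0.15. Both arms of miR-27a are among them, and miR-27a also stands on the list reported to hold back adipocyte formation. The rows of miR-126 were not called between classes. Of 6 leukocyte miRNAs 3 were lower, among them miR-142-3p at -2.51 ± 0.65, and of 6 skeletal and heart muscle miRNAs 1 was lower. None of the 3 red blood cell miRNAs was called between classes, and 2 were called over depots. Of the miRNAs reported to promote adipocyte formation, 2 of 17 were higher and 1 lower, with miR-152 at 1.41 ± 0.34. Of 13 reported to hold it back, 4 were higher and 1 lower, with miR-224 at 1.01 ± 0.17. Over the 36 libraries, the summed list reported to hold adipocyte formation back had an r of 0.50 with miR-143 and -0.05 with miR-145. This list summed to 26571 to 101140 CPM, and its member miR-27b, the miRNA most like miR-143 (r = 0.63), averaged 31620 CPM. The 0.50 therefore repeats that likeness in part, and no value without miR-27b was computed. Singly, its other members averaging at least 10 CPM had an r from -0.39 (miR-130b) to 0.28 (miR-224) with miR-143. For the list reported to promote adipocyte formation, r was -0.06 with miR-143 and -0.40 with miR-145, and 0.02 and 0.10 without miR-26a. For the fibroblast, endothelial, muscle, red blood cell, leukocyte and epithelial lists r ran from -0.27 to 0.34 with miR-143 and from -0.11 to 0.16 with miR-145. The part these cell mixtures have in the levels of miR-143 and miR-145 was not tested.

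The libraries that carried the largest values stood apart on some of these lists too. PRAT6 held 1296 CPM of the skeletal and heart muscle miRNAs, against 55.3 to 120 CPM in the other 5 perirenal libraries, and had the lowest total of the 36. It was also below the other perirenal libraries on the smooth muscle list (61408 against 72924 to 192249 CPM) and above them on the list reported to hold back adipocyte formation (55126 against 27294 to 45737 CPM). BSAT3 held 23.6 CPM of the skeletal and heart muscle miRNAs, the least of the 36, while the other back libraries held 51.9 to 2949 CPM. Its library total was among the higher ones. It lay above the other back libraries on the endothelial list (73704 against 53460 to 62004 CPM) and below them on the fibroblast and stroma list (16319 against 18681 to 36502 CPM). BSAT3 was also below them on the list reported to hold back adipocyte formation (33805 against 42316 to 60398 CPM) and on the red blood cell list (45988 against 51800 to 185650 CPM). Their part in the levels of miR-143 and miR-145 was not tested. Across the 36 libraries, r with the library total was -0.34 for miR-143 and -0.20 for miR-145, and r with the normalisation factor was -0.36 and 0.27. The libraries also fell into 19 with more counts for miR-26a and 17 with more for its near-identical relative miR-26c. miR-145 had medians of 217 and 319 CPM in these sets, from 58.4 to 2478 CPM in the first and from 99.6 to 847 CPM in the other, and miR-143 had medians of 25807 and 30112 CPM. The sets overlapped for both miRNAs, and what sets them apart was not tested.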

How the data were processed

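Small RNA counts of 36 adipose libraries were analysed. The authors deposited whole read counts per miRNA, and beside them reads per 1000000 (RPM), which equalled each count over its library's total to within 4.79e-06. Which aligner, annotation and build they used is not given in the sources used here, and DESeq2 1.24.0 is named in the submitters' processing notes. The labels' protocols name a kit for long RNA libraries, and the small RNA steps are not named. Groups came from the sample titles. How reads that fit several miRNA genes were shared out is also not given.

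Counts of all features were fitted with edgeR 4.0.16 in R 4.3.3 by the robust quasi-likelihood test. It used TMM scaling, a filter on low counts by depot with a minimum of 10, and 1 coefficient per depot. The main fit had no animal term. P-values were adjusted by Benjamini-Hochberg over the 667 tested features within each comparison, with a threshold of 0.05. CPM in the text are counts per 1000000 of TMM-scaled totals, and an SE is the log2 difference over the root of its F value. The ratio used counts plus 1 and 100000 permutations. The alternatives used limma 3.58.1 on log2 RPM, DESeq2 1.42.0, other scalings and filters, and left-out animals and libraries. Scripts were tested on simulated data. The animals were the replicates, and no libraries were near-copies of each other (lowest chi-square per degree of freedom 4.18).

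Every depot came from the same animals, so the replicate number pairs libraries. Deviations from depot means correlated at 0.171 on average within an animal and -0.0591 between animals, and 59 of 90 pairs of 1 animal were above 0.1. Likeness was ranked by Pearson's r over named miRNAs with at least 10 CPM, and the first 5 are named. From each of 9 lists the 3 members with the smallest p over depots were the candidates to name. The 2 miRNAs, the lists and the tests were chosen with earlier results of these data known.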

Additional observations from a re-analysis of the deposited data

Results flagged for a closer look

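Within each depot, the libraries of 6 animals were checked for a single value far from the others (a gap to its nearest neighbour above 0.625 of the whole range). The check ran on 18 groups and marked 4, where chance marks about 1 in 20 if values are roughly normal, which CPM with a long upper tail are not. For miR-143, PRAT6 stood at 88582 CPM, against 19012 to 35263 CPM in the other 5 perirenal libraries (gap 0.766 of the range). For miR-145, BSAT3 stood at 2478 CPM, where the rest of the back fat held 245 to 489 CPM (gap 0.891). The third was miR-145 in PRAT6, at 847 CPM against 99.6 to 369 CPM (gap 0.640). The last was miR-145 in IAT2, at 802 CPM against 114 to 368 CPM in the other inguinal libraries (gap 0.630). On the log2 scale, a check added after seeing the data, 1 of the 4 stayed beyond the limit, miR-145 in BSAT3 (gap 0.702). The other gaps were 0.599 for miR-143 in PRAT6, 0.389 for miR-145 in PRAT6 and 0.398 for miR-145 in IAT2.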

How the results depend on the processing

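Differences near 0 changed sign easily, and none of these sign changes involved a called difference. The class difference of miR-143 was -0.16 with library totals, -0.0659 with limma on log2(RPM + 1), -0.0659 with log2(RPM + 10) and -0.0163 with 2 groups of 18. Library totals also gave -0.0429 for miR-143 in back and 0.0083 in omental fat. Without BSAT3 and PRAT6, chosen after seeing the data, miR-143 stood at 0.0014 in sternal and 0.0435 in omental fat, and miR-145 at 0.29 in sternal and 0.20 in inguinal fat. With letter B libraries only, miR-145 stood at -0.14 in pericardial fat and 0.23 in perirenal fat (PRAT3, PRAT5 and PRAT6). The animal span of the ratio was then 2.04 (permutation p = 0.0534). With the replicate block, miR-145 in sternal fat was 0.0840, and the block changed no call, with 0 of 23 comparisons called for each miRNA (edgeR). With 1 animal or library left out, miR-143 ranged from -0.0670 to 0.25 for the class, -0.11 to 0.19 in back, -0.24 to 0.0391 in sternal and -0.34 to 0.16 in omental fat, with 0 to 1 pairs called. miR-145 ranged from -0.46 to 0.24 in sternal, -0.57 to 0.0853 in inguinal, -0.20 to 0.24 in pericardial and -0.91 to 0.0208 in perirenal fat. The ratio ranged from -0.37 to 0.0884 for the class, 0.95 to 1.40 over depots and 1.55 to 2.00 over animals. The cause was not tested. The 6 animals per depot limit these intervals, and counting error hardly does.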
